A study of Gallus gallus with 12 samples.

Results

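The genes described here encode splicing factors and neuronal RNA-binding proteins of the chick neural tube. They were chosen by name, as all probe sets of an Affymetrix chicken array whose symbol in the platform's annotation starts with SRSF, SFRS, HNRNP, RBFOX, ELAVL, CELF, NOVA, PTBP, MBNL, MSI, KHDRBS or SRRM. The rule found 156 of 37693 tested probe sets, for 50 genes, of which 41 had more than 1 probe set. Probe sets annotated to several symbols, 177 of those tested, were not counted as members. No probe set with 1 symbol had one that starts with SFRS, and none of these was annotated to ELAVL3, RBFOX3, HNRNPC or HNRNPA3. The 12 arrays formed 3 groups of 4, each array from its own pool of neural tubes of 20 embryos. Chick embryos of stage HH10 to HH11, with 11 to 15 somites in the series' description and 13 to 15 in the sample labels, were electroporated in ovo with a plasmid, and 6 hours later the cells showing GFP were isolated by sorting. The control plasmid carried GFP, the second GFP with NEUROG2 and the third GFP with NEUROG2AQ, so that electroporation, GFP and the sort were shared by all groups. NEUROG2 is a transcription factor of the bHLH class that starts neuronal differentiation. The labels describe NEUROG2AQ by its name alone. In published work on proneural proteins, AQ stands for a change in the basic region that impairs DNA binding. Promoter and insert sequence are not given in the sources used here.

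Splicing factors decide which exons enter an mRNA. SR proteins (SRSF genes) mostly bind exons and promote their inclusion, while many hnRNP proteins promote skipping, and both classes work in every cell type. ELAVL, NOVA, RBFOX, CELF, MBNL, KHDRBS and SRRM4 proteins shape tissue-specific and neuronal transcripts. In mouse, a change from PTBP1 in progenitors to PTBP2 in young neurons switches many exons, and Musashi proteins (MSI1, MSI2) act on mRNAs of neural progenitors.

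Values are the authors' RMA signals on a log2 scale, so a difference of 1 is a 2-fold change. Signals of different probe sets depend on their probes and are not set against each other. The median probe set of the array had a mean of 2.83, and values near or under it lie close to background. Of the 156 member probe sets, 105 had a higher mean than that median, at least 1 for 44 of the 50 genes, and 50 lay among its brightest 10%.

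Some arrays stood apart before any comparison of these genes. Control replicate 1 had the highest mean log2 signal over 9 somite and mesoderm markers, at 4.09. The remaining controls spanned 2.97 to 3.43. This mean was 2.95 to 3.44 in NEUROG2 and 2.69 to 3.13 in NEUROG2AQ arrays. For 12 blood and endothelium markers, control replicate 4 was highest at 3.53, and the remaining controls spanned 2.54 to 3.04. Of 12 measured neuronal markers 9 rose in NEUROG2 arrays and 0 fell, with array means of 5.18 to 5.35 in control, 6.58 to 6.82 in NEUROG2 and 4.80 to 4.96 in NEUROG2AQ arrays. Of 13 progenitor and cycling markers 9 fell and 0 rose, and of 9 neural crest markers 5 fell and 0 rose. The neuronal, progenitor and neural crest calls are 75%, 69.2% and 55.6% of their lists. Of all genes, each read through its brightest probe set, 10.6% were called. The lists were chosen with earlier results of these data known, so their shares are not independent evidence. Neural crest means were 6.19 to 6.52 in control, 5.57 to 5.83 in NEUROG2 and 6.07 to 6.38 in NEUROG2AQ arrays. In NEUROG2AQ against control, 3 neuronal markers fell and 0 rose, 25% against 0.108% of all genes. Of these calls, that of TAGLN3 ended without 4 of the arrays, at a limma adjusted p of 0.0503 to 0.0783. It also ended with only the compared groups fitted (0.0722). In NEUROG2 against NEUROG2AQ, 9 neuronal markers were higher and 0 lower. Of the progenitor markers 1 was higher and 7 lower, and of the neural crest markers 1 was higher and 5 lower. Of all genes, 9.69% were called there. None of the somite and mesoderm markers passed in any comparison. Of the blood and endothelium markers, 1 fell in NEUROG2 against control (8.33%, against 10.6% of all genes) and 0 passed in the other comparisons. That marker, FLT1, lay under the array median, with means of 1.74 in control and 1.25 in NEUROG2 arrays. Its call ended without 5 of the arrays, at an adjusted p of 0.0859 to 0.11. Transcript ends were compared on the array's own control probes. The log2 signal at 3' minus that at 5', a measure of RNA integrity, was 1.72 to 1.98 in control and 1.59 to 1.90 in NEUROG2 arrays. In NEUROG2AQ arrays it was 1.52 in replicate 4 and 2.03 to 2.14 in the others. Their part in the results below was not tested beyond the alternatives named. In sorted pools, fewer cells of a type and less RNA per cell cannot be told apart.

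Which of these genes changed within 6 hours of adding NEUROG2 was read against the control arrays. The changes that passed were small: 4 probe sets rose and 10 fell, at an adjusted p under 0.05 in limma over all tested probe sets, and the largest change was 1.56-fold. The probe sets that rose belong to ELAVL4, KHDRBS3, RBFOX2 and SRSF5. Those that fell belong to CELF1, MSI2 (2 probe sets), SRSF2, SRSF7, HNRNPDL, HNRNPLL, HNRNPAB and HNRNPU (2 probe sets). The 14 calls are 8.97% of the members, against 6.67% of all tested probe sets. By direction, 3.3% of all probe sets were called higher and 3.38% lower. At an unadjusted p under 0.05 there were 43 members, 27.6%, against 17.2% of all probe sets. Shares at an unadjusted p, here and below, were not matched for brightness. After median centring 2 members were higher and 10 lower, and after cyclic loess 4 were higher and 6 lower. Over all tested probe sets, median centring gave 1098 higher and 1416 lower, and cyclic loess 1350 higher and 1071 lower.

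The share of calls was larger among bright probe sets. Without the 40% dimmest probe sets, 14 of 123 members were called, against 11.2% of all probe sets so tested, so that the members' share lay near the background. With 1 probe set per gene symbol the members' share was larger than the background, as 11 of 50 genes were called, against 12.1% of all genes. Of these 11 calls, 9 were also calls of the main fit. Among the brightest 10% of the array, 9 of 50 members were called, 2 higher and 7 lower, against 13.4% of all probe sets of that range and 8.38% called lower. No test was made of these shares against each other. The median member differed by -0.05 on the log2 scale (NEUROG2 minus control), and the median of all probe sets by 0.01.

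The count of calls depended on single arrays. It was 8, 7 and 9 without control replicate 2, 3 or 4, and 7 and 6 without NEUROG2 replicate 3 or 4. The share of all tested probe sets called also fell in these fits, to between 4.7% and 5.51%, from 6.67% with all arrays. Leaving out both control replicate 1 and NEUROG2AQ replicate 4 gave 23 calls, 3 higher and 20 lower. Over all tested probe sets that fit called 1541 higher and 2141 lower, 9.77% in all. The calls of SRSF2, CELF1, HNRNPDL and the dimmer MSI2 probe set held under every alternative in which they were tested, including each array left out in turn. The remaining 10 calls of this comparison each ended without at least 2 of the arrays, as given with each gene.

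**Figure D1:**
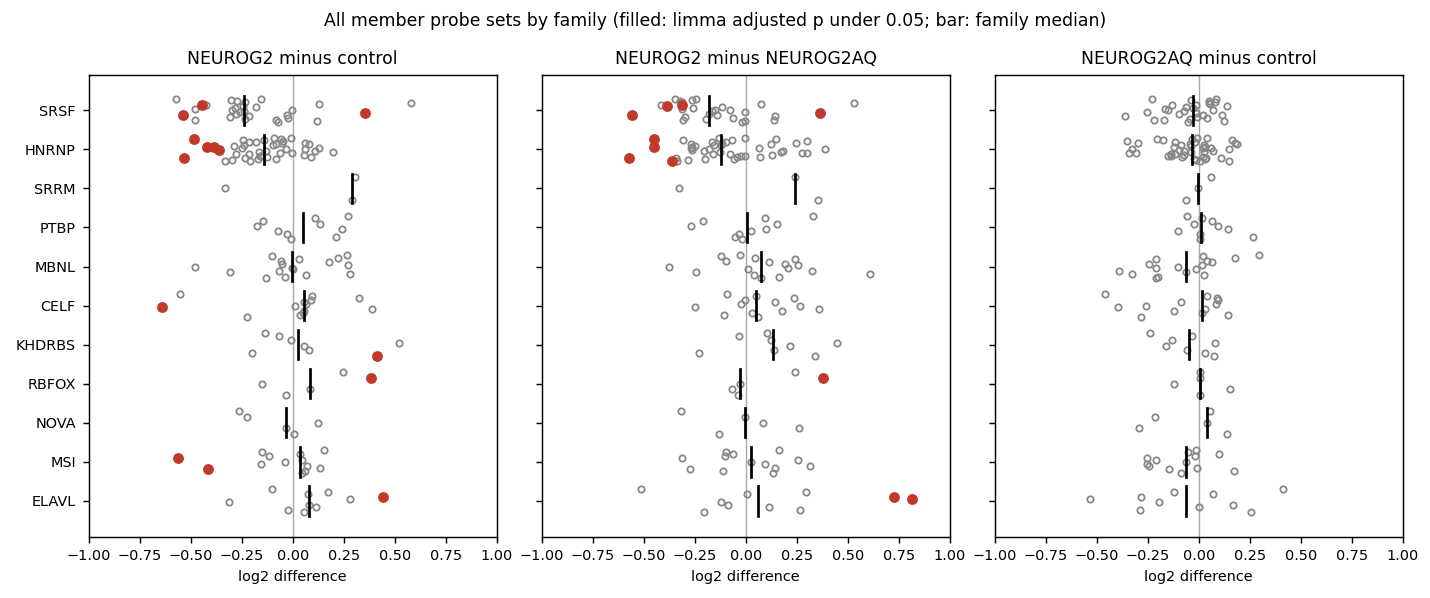
Log2 difference of each of the 156 member probe sets (horizontal axis, log2 units) by gene family (vertical axis) in the 3 comparisons, with filled red points at a limma adjusted p under 0.05, open points otherwise, and a black bar at the family median. Most SRSF and HNRNP points lie left of zero in NEUROG2 minus control (medians -0.24 and -0.14), and no point is filled in NEUROG2AQ minus control.

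Among the ELAVL genes, ELAVL4 (HuD), an RNA-binding protein of postmitotic neurons that stabilises neuronal mRNAs, was higher in NEUROG2 arrays. Its brighter probe set read 6.08, 6.47, 6.22 and 6.40 in the control arrays, 6.59, 6.83, 6.81 and 6.72 in the NEUROG2 arrays and 5.96, 6.23, 5.97 and 5.87 in the NEUROG2AQ arrays. All NEUROG2 arrays lay above all control arrays, and the NEUROG2AQ arrays reached into the lower end of the controls. ELAVL4 rose 1.36-fold over control (0.44 ± 0.11, log2 fold change ± SE, limma adjusted p = 0.027) and 1.65-fold over NEUROG2AQ (0.73 ± 0.11, adjusted p = 0.000676). Leaving out control replicate 1 or 3, or any NEUROG2 replicate but the first, ended the call against control at adjusted p of 0.0567 to 0.0824. The call against NEUROG2AQ held under every alternative tried, with an adjusted p of at most 0.00361.

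The dimmer ELAVL4 probe set read 4.39, 5.13, 4.70 and 4.36 in the control arrays, 4.71, 5.25, 5.0 and 4.75 in the NEUROG2 arrays and 4.23, 4.45, 3.87 and 3.90 in the NEUROG2AQ arrays. Here control and NEUROG2 arrays overlapped, while all NEUROG2 arrays lay above all NEUROG2AQ arrays. It was 1.76-fold higher in NEUROG2 than in NEUROG2AQ arrays (0.81 ± 0.18, adjusted p = 0.0114), a call that also held throughout, and did not pass against control (0.28 ± 0.18, adjusted p = 0.489). ELAVL4 is thus the only member gene with more than 1 probe set for which every probe set passed in at least 1 comparison. In NEUROG2AQ against control its probe sets differed by -0.28 ± 0.11 and -0.53 ± 0.18 without passing (adjusted p = 0.653 and 0.528).

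The other ELAVL genes did not pass. ELAVL1 (HuR), the form found in most cell types, had 3 probe sets, the brightest of which differed by -0.31 ± 0.13 between NEUROG2 and control. The second, at 6.07 in control arrays, leaned the other way, by 0.17 ± 0.10 (adjusted p = 0.446). On it all NEUROG2 arrays lay above all NEUROG2AQ arrays, without passing (0.29 ± 0.10, adjusted p = 0.134). The third differed from control by -0.02 ± 0.12. ELAVL2 (HuB), a neuronal form, was dim on all 5 of its probe sets. The brightest of them read 2.78 on average in control arrays, close to the array median, and differed by -0.10 ± 0.23. Changes of ELAVL2 are therefore hard to see with these probes.

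KHDRBS3 (SLM2, also called T-STAR), which controls neurexin splicing in mouse brain, rose with NEUROG2. Its brighter probe set read 7.37, 7.62, 7.51 and 7.71 in the control arrays, 7.92, 7.88, 7.90 and 8.17 in the NEUROG2 arrays and 7.66, 7.62, 7.53 and 7.69 in the NEUROG2AQ arrays. Every NEUROG2 array lay above every array of the other groups, and NEUROG2 replicate 4 was the highest. The rise over control was 1.33-fold (0.41 ± 0.10, adjusted p = 0.0243), and the difference from NEUROG2AQ did not pass (0.34 ± 0.10, adjusted p = 0.0722). Leaving out control replicate 1 or 3 or NEUROG2 replicate 4 ended the call, at adjusted p of 0.0519 to 0.087, as did fitting the compared groups alone (0.0594) or leaving out both control replicate 1 and NEUROG2AQ replicate 4 (0.0518). The dimmer KHDRBS3 probe set differed the same way without passing (0.52 ± 0.19, adjusted p = 0.133). KHDRBS1 (SAM68), a broadly expressed relative, differed by -0.01 ± 0.10 on its brightest probe set, and KHDRBS2 (SLM1) by -0.14 ± 0.14. Neither passed.

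RBFOX proteins bind a short motif beside exons and act in brain and muscle. A dim RBFOX2 probe set read 2.96, 2.67, 2.77 and 2.73 in the control arrays, 3.16, 3.04, 3.21 and 3.25 in the NEUROG2 arrays and 2.77, 2.77, 2.60 and 3.01 in the NEUROG2AQ arrays. The NEUROG2 arrays lay above all others by narrow margins, at signals close to the array median. It was called higher against control (0.39 ± 0.11, adjusted p = 0.0417) and against NEUROG2AQ (0.38 ± 0.11, adjusted p = 0.0478). Both calls were among the least stable. The call against control ended without control replicate 2, 3 or 4, NEUROG2 replicate 1, 3 or 4, or NEUROG2AQ replicate 1 or 2, at 0.0571 to 0.13. That against NEUROG2AQ ended when any array but control replicate 1 or NEUROG2AQ replicate 4 was left out, at 0.0517 to 0.155. It also ended with the 3'/5' difference as a covariate, at a log2 difference of 0.29 and an adjusted p of 0.184, and under 4 further settings at 0.0564 to 0.0744. The call against control ended under 4 settings too, at 0.0504 to 0.0645. The bright RBFOX2 probe set, at 6.64 in control arrays, differed by 0.25 ± 0.13 without passing (adjusted p = 0.385), and the dimmest by -0.03 ± 0.17. RBFOX1, at 2.29 in control arrays on its brighter probe set, differed by 0.08 ± 0.11.

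Further neuronal splicing regulators did not pass. SRRM4 (nSR100), which drives inclusion of neuronal microexons, read 3.44, 3.12, 3.27 and 3.23 in the control arrays, 3.38, 3.56, 3.86 and 3.47 in the NEUROG2 arrays and 3.42, 3.18, 3.17 and 3.54 in the NEUROG2AQ arrays. Its NEUROG2 and control arrays overlapped (0.30 ± 0.13, adjusted p = 0.212), as did those of its relative SRRM3 (0.29 ± 0.18, adjusted p = 0.458). SRRM1, a general splicing coactivator, was lower by more than its spread, with no overlap between NEUROG2 and control arrays, but missed the threshold (-0.33 ± 0.11, adjusted p = 0.0899). NOVA1 had 1 bright probe set, at 7.24 in control arrays, which differed by -0.03 ± 0.11, and 4 at or under 1.60.

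CELF1, which binds GU-rich sequences and acts on splicing and mRNA decay, had the largest decrease of all members. Its brightest probe set read 5.69, 5.96, 6.11 and 5.86 in the control arrays, 5.06, 5.29, 5.52 and 5.18 in the NEUROG2 arrays and 5.50, 5.61, 5.73 and 5.20 in the NEUROG2AQ arrays. The NEUROG2 arrays were all lower than the control arrays, and the NEUROG2AQ arrays overlapped both groups. CELF1 fell 1.56-fold against control (-0.64 ± 0.14, adjusted p = 0.00768). NEUROG2 and NEUROG2AQ did not differ past the threshold (-0.25 ± 0.14, adjusted p = 0.405), nor did NEUROG2AQ and control (-0.39 ± 0.14, adjusted p = 0.536). The second CELF1 probe set differed by -0.55 ± 0.18 without passing (adjusted p = 0.0858), with overlapping groups, but passed without control replicate 1, NEUROG2 replicate 3 or NEUROG2AQ replicate 4. The third, at 1.80 in control arrays, lay under the array median.

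None of the probe sets of CELF2 to CELF6 passed. CELF2, an abundant brain form, differed by 0.39 ± 0.16 (adjusted p = 0.207) and CELF3 by 0.01 ± 0.11. CELF4, CELF5 and CELF6 read 2.65 or less in control arrays, with differences of 0.33 ± 0.20, 0.06 ± 0.11 and -0.22 ± 0.12 on their brightest probe sets. The 17 probe sets of the muscleblind genes MBNL1, MBNL2 and MBNL3, regulators of the change from fetal to adult splicing, also did not pass. Their differences ran from -0.48 to 0.28. The brightest MBNL1 probe set held the lowest of these values (-0.48 ± 0.17, adjusted p = 0.121) and was called lower when control replicate 1 was left out. The second MBNL1 probe set differed by -0.31 ± 0.16. The third, at 5.31 in control arrays, leaned the other way (0.27 ± 0.11, adjusted p = 0.217). The brightest probe sets of MBNL2 and MBNL3 differed by 0.27 ± 0.18 and -0.04 ± 0.20.

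**Figure D2:**
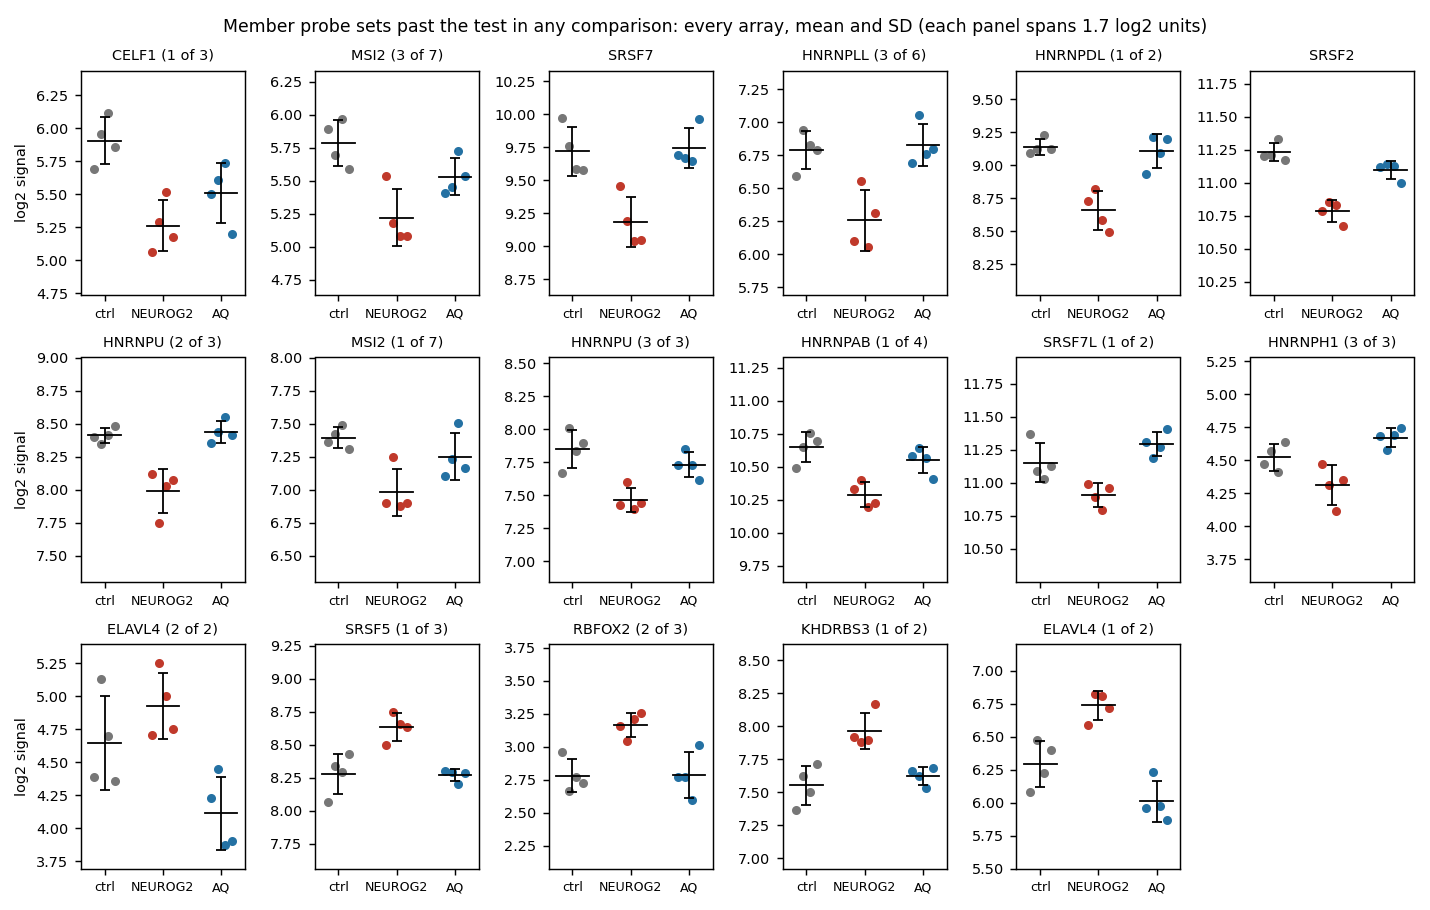
Log2 signal (vertical axis) of the 17 member probe sets past the test in at least 1 comparison, in every array of the control (grey), NEUROG2 (red) and NEUROG2AQ (blue) groups, with a horizontal bar at the mean and an error bar of 1 SD (n = 4). Every panel spans the same number of log2 units, and numbers in brackets give the probe set's place by mean signal among those of its gene. The first 12 panels were lower in NEUROG2 than in control arrays and the last 5 higher, and NEUROG2AQ points overlap the control points in every panel but SRSF2.

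Of the Musashi genes, MSI2 fell on part of its probe sets and MSI1 did not pass. One MSI2 probe set read 5.89, 5.69, 5.97 and 5.59 in the control arrays, 5.54, 5.18, 5.08 and 5.08 in the NEUROG2 arrays and 5.41, 5.45, 5.73 and 5.54 in the NEUROG2AQ arrays. NEUROG2 replicate 1 came close to the lowest control, and the other NEUROG2 arrays were well lower. MSI2 fell by 0.56 ± 0.13 on this probe set (adjusted p = 0.0119). The brightest MSI2 probe set read 7.36, 7.42, 7.49 and 7.31 in the control arrays, 6.90, 7.25, 6.88 and 6.90 in the NEUROG2 arrays and 7.11, 7.24, 7.51 and 7.16 in the NEUROG2AQ arrays. Here NEUROG2 replicate 2 stood near the controls and the other NEUROG2 arrays well below. It fell by 0.42 ± 0.11 (adjusted p = 0.0402), a call that ended when control replicate 2, 3 or 4, NEUROG2 replicate 1, 3 or 4 or NEUROG2AQ replicate 2 was left out, at 0.0552 to 0.122, and with cyclic loess (0.0654), the 3'/5' covariate (0.0543) or the compared groups alone (0.0537). Neither probe set passed between NEUROG2 and NEUROG2AQ. The first differed there by -0.31 ± 0.13 and the brightest by -0.27 ± 0.11 (adjusted p = 0.213 and 0.236), with overlapping arrays. NEUROG2AQ minus control was -0.25 ± 0.13 and -0.14 ± 0.11 (adjusted p = 0.751 and 0.875). The other 5 MSI2 probe sets differed between NEUROG2 and control by -0.16 to 0.06 and did not pass. MSI1 differed by 0.07 ± 0.11 and 0.13 ± 0.18 on its bright probe sets (adjusted p = 0.838 and 0.796), and its 6 probe sets gave no call.

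PTBP1 and PTBP2 did not pass in any comparison. The brighter PTBP1 probe set read 9.84, 9.81, 9.77 and 9.89 in the control arrays, 9.59, 9.75, 9.68 and 9.71 in the NEUROG2 arrays and 9.82, 10.03, 9.91 and 9.80 in the NEUROG2AQ arrays. Each NEUROG2 array was lower than each array of the other groups, but the difference missed the threshold (-0.14 ± 0.09, 1.1-fold, adjusted p = 0.462 against control). The second PTBP1 probe set also had no overlap, at -0.17 ± 0.09 (adjusted p = 0.352). The brightest PTBP2 probe set differed by 0.11 ± 0.18 (adjusted p = 0.847), with overlapping groups, and 3 of its 5 probe sets read under 1.5. PTBP3 was dim throughout, at 2.66 or less in control arrays, and differed by 0.27 ± 0.13 on its brightest probe set.

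Among the SR protein genes, 29 probe sets of 11 genes, 2 fell and 1 rose, 10.3% against 6.67% of all tested probe sets. At an unadjusted p under 0.05 there were 17, 58.6%, against 17.2% of all, shares not matched for brightness. Of all 29, 25 had a difference below zero, 86.2% against 47.6% of all tested probe sets, with a median of -0.24. The brightest 10% of the array also leaned down, with 55.4% of all its probe sets below zero. The 29 probe sets stand for 11 genes, so they are not independent. The median was -0.27 after median centring and -0.21 after cyclic loess. SRSF2 (SC35), an essential exon-binding factor, read 11.21, 11.21, 11.33 and 11.18 in the control arrays, 10.79, 10.85, 10.83 and 10.67 in the NEUROG2 arrays and 11.12, 11.14, 11.13 and 11.0 in the NEUROG2AQ arrays. The NEUROG2 arrays formed a separate low group, and the NEUROG2AQ arrays also lay just below every control. It fell 1.36-fold (-0.45 ± 0.09, adjusted p = 0.00462), which was the lowest adjusted p of any member in this comparison. NEUROG2AQ against control was not called (-0.13 ± 0.09, adjusted p = 0.836). NEUROG2 against NEUROG2AQ was called (-0.31 ± 0.09, adjusted p = 0.0463), but ended when any array but control replicate 1 or NEUROG2AQ replicate 4 was left out (0.0512 to 0.139), and with the 3'/5' difference as a covariate (0.119), cyclic loess (0.101), the compared groups alone (0.07) or a replicate block (0.0649).

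SRSF7 (9G8), which takes part in splicing and mRNA export, read 9.97, 9.76, 9.58 and 9.57 in the control arrays, 9.45, 9.19, 9.04 and 9.05 in the NEUROG2 arrays and 9.69, 9.67, 9.64 and 9.97 in the NEUROG2AQ arrays. Its NEUROG2 arrays lay below all others, and control replicate 1 and NEUROG2AQ replicate 4 were the highest of their groups. SRSF7 fell 1.45-fold against control (-0.54 ± 0.12, adjusted p = 0.0153) and 1.47-fold against NEUROG2AQ (-0.56 ± 0.12, adjusted p = 0.0118). The call against control ended without NEUROG2 replicate 3 or 4 (0.0581 and 0.0576), and that against NEUROG2AQ held under every alternative tried. The gene annotated SRSF7L, whose near-identity to SRSF7 at the probes is not known here, was called lower against NEUROG2AQ only (-0.39 ± 0.10, adjusted p = 0.0295). That call was lost when NEUROG2 replicate 2, 3 or 4 or NEUROG2AQ replicate 1, 3 or 4 was left out, at 0.0528 to 0.0992, and after cyclic loess (0.0587). Against control SRSF7L differed by -0.25 ± 0.10 (adjusted p = 0.2).

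SRSF5 (SRp40) went the other way. Its brightest probe set read 8.07, 8.34, 8.29 and 8.43 in the control arrays, 8.50, 8.75, 8.65 and 8.63 in the NEUROG2 arrays and 8.30, 8.30, 8.20 and 8.28 in the NEUROG2AQ arrays. All NEUROG2 arrays lay above all others, with control replicate 1 the lowest array. It rose 1.28-fold over control (0.35 ± 0.10, adjusted p = 0.0425) and 1.29-fold over NEUROG2AQ (0.37 ± 0.10, adjusted p = 0.0379). The call against control ended without 9 of the 12 arrays, at up to 0.114, and stayed past the threshold only without control replicate 4, NEUROG2 replicate 1 or NEUROG2AQ replicate 4. The call against NEUROG2AQ was lost without control replicate 2, NEUROG2 replicate 2, 3 or 4, or any NEUROG2AQ replicate, at 0.0541 to 0.109. Median centring also ended both (0.0734 and 0.0657), as did a replicate block (0.0545 and 0.0502). The compared groups alone (0.0928) or both control replicate 1 and NEUROG2AQ replicate 4 left out (0.0908) ended the call against control, and the 3'/5' covariate (0.0531) that against NEUROG2AQ. A second SRSF5 probe set was higher with no overlap and missed the threshold (0.58 ± 0.18, adjusted p = 0.081). Counting all SR protein probe sets, NEUROG2 arrays lay wholly below controls for 7 (24.1%) and wholly above for 2 (6.9%), against 5.43% and 5.71% of all tested probe sets. In the brightest 10% of the array the share wholly below was 13.7%.

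Of the hnRNP genes, 43 probe sets of 13 genes, 5 fell and 0 rose, 11.6% against 6.67% of all tested probe sets. At an unadjusted p under 0.05 there were 12, 27.9%, against 17.2% of all, shares not matched for brightness. The median difference was -0.14, and 35 lay below zero, 81.4% against 47.6% of all (30 after cyclic loess). The median was -0.17 after median centring and -0.11 after cyclic loess. Many of these probe sets are bright, and in the bright range given for the SR protein genes 55.4% of all probe sets lay below zero. The 43 probe sets stand for 13 genes, so they are not independent. HNRNPDL, a relative of HNRNPD that regulates its own splicing, read 9.09, 9.13, 9.23 and 9.12 in the control arrays, 8.73, 8.82, 8.59 and 8.50 in the NEUROG2 arrays and 8.93, 9.21, 9.09 and 9.20 in the NEUROG2AQ arrays on its brighter probe set. NEUROG2 arrays lay below all others, and control and NEUROG2AQ arrays overlapped. It fell 1.4-fold against control (-0.48 ± 0.10, adjusted p = 0.00759) and 1.37-fold against NEUROG2AQ (-0.45 ± 0.10, adjusted p = 0.0123), and both calls held under every alternative tried. The other HNRNPDL probe set differed by -0.05 ± 0.19 without passing.

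HNRNPU (SAF-A), a nuclear scaffold protein that binds chromatin and RNA, had 3 probe sets with NEUROG2 arrays below all controls on each. The second brightest read 8.40, 8.35, 8.41 and 8.48 in the control arrays, 8.12, 7.75, 8.03 and 8.07 in the NEUROG2 arrays and 8.36, 8.43, 8.55 and 8.42 in the NEUROG2AQ arrays. NEUROG2 replicate 2 was the lowest, and the NEUROG2AQ arrays lay among the controls. It fell by 0.42 ± 0.10 against control (adjusted p = 0.0173) and by 0.45 ± 0.10 against NEUROG2AQ (adjusted p = 0.0113), the latter under every alternative tried. The former ended without control replicate 4 or NEUROG2 replicate 2 (at most 0.0555) and with cyclic loess (0.0538). The dimmest fell by 0.39 ± 0.10 (adjusted p = 0.0281), a call lost when control replicate 2, 3 or 4 or NEUROG2 replicate 1, 3 or 4 was left out, at 0.057 to 0.103, and with cyclic loess (0.0648) or the compared groups alone (0.0573). The brightest missed the threshold (-0.29 ± 0.09, adjusted p = 0.0668).

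HNRNPLL, known for its control of CD45 splicing in lymphocytes, fell on 1 of 6 probe sets, which read 6.60, 6.94, 6.83 and 6.79 in the control arrays, 6.10, 6.56, 6.05 and 6.31 in the NEUROG2 arrays and 6.69, 7.06, 6.75 and 6.80 in the NEUROG2AQ arrays. NEUROG2 replicate 2 reached close to the lowest control and the rest lay lower. The change was -0.53 ± 0.13 against control (adjusted p = 0.0175) and -0.57 ± 0.13 against NEUROG2AQ (adjusted p = 0.0114). The call against control ended without control replicate 2 or NEUROG2 replicate 1 or 3 (0.0589 to 0.0687), and the other call ended only with the 3'/5' difference as a covariate (0.0521) among the alternatives tried. All 6 HNRNPLL probe sets had differences below zero, the brightest at -0.14 ± 0.09.

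HNRNPAB and HNRNPH1 gave 1 call each. The brightest HNRNPAB probe set read 10.49, 10.65, 10.75 and 10.69 in the control arrays, 10.33, 10.40, 10.20 and 10.22 in the NEUROG2 arrays and 10.58, 10.64, 10.57 and 10.41 in the NEUROG2AQ arrays. All NEUROG2 arrays lay below all others, and it fell by 0.36 ± 0.10 against control (adjusted p = 0.0345). The same 6 left-out arrays as for the dimmest HNRNPU probe set ended this call, at 0.0602 to 0.106, as did the compared groups alone (0.0641), a replicate block (0.0597) and cyclic loess (0.0543). For HNRNPH1, the dimmest of 3 probe sets was called lower against NEUROG2AQ (-0.36 ± 0.10, adjusted p = 0.0435), and no probe set was called against control. The call ended without 9 of the 12 arrays, at up to 0.146, and under 5 other settings at 0.058 to 0.102, the 3'/5' covariate among them (0.0881). It stayed without control replicate 1 or 3 or NEUROG2 replicate 1. The remaining hnRNP genes passed in no comparison.

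Probe sets of 1 gene did not always move alike. Of the 14 genes with a call in any comparison, 12 had more than 1 probe set, and no gene had probe sets called in opposite directions. HNRNPAB came closest: its second probe set lay above all controls in every NEUROG2 array, at 0.20 ± 0.09 (adjusted p = 0.242), while the brightest fell. MSI2 had 2 probe sets that fell and 5 near zero. The files do not say which exons or transcript ends the probes match, and 45 of the 156 member probe sets have identifiers of the types that can match several transcripts or genes. Whether such a split reflects isoforms was not tested.

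**Figure D3:**
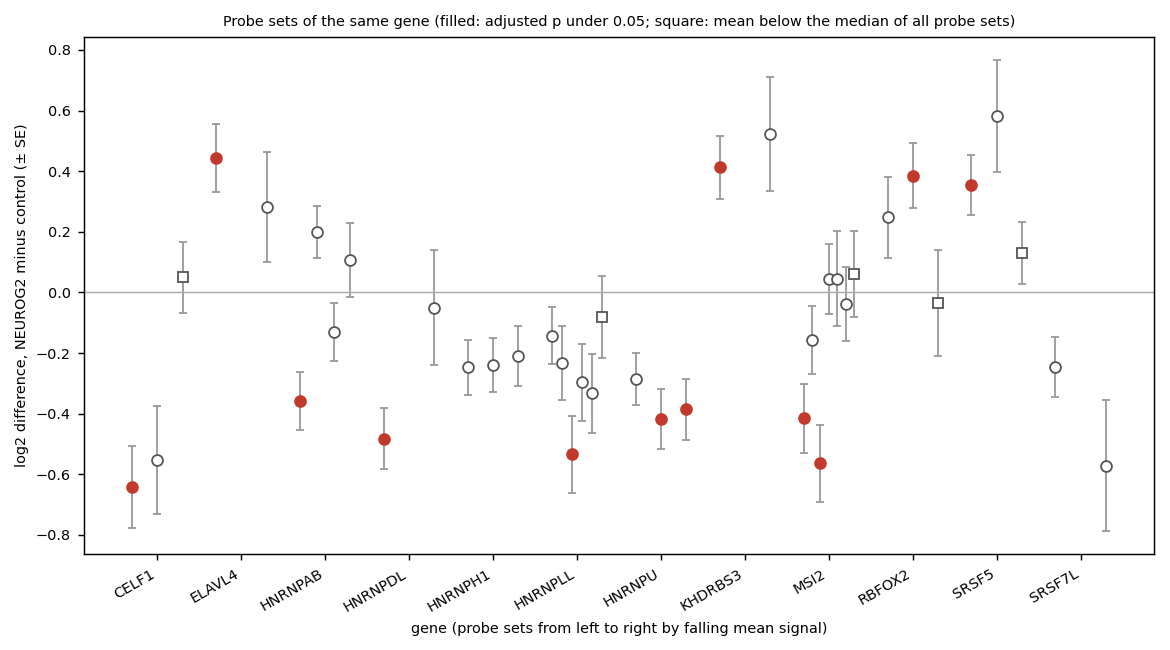
Log2 difference of NEUROG2 minus control (vertical axis, ± SE from limma) for every probe set of the 12 genes with a call and more than 1 probe set, ordered within each gene from left to right by falling mean signal. Filled points passed the test and squares mark probe sets with a mean below the array's median. HNRNPU and CELF1 probe sets above background agree in direction, while those of HNRNPAB lie on both sides of zero.

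Over all members, NEUROG2 arrays lay wholly below control arrays for 23 probe sets and wholly above for 6. Over all tested probe sets these shares were 5.43% and 5.71%, and the 23 are 14.7% of the members. Among the brightest 10% of the array, 19 of 50 members (38%) lay wholly below, against 13.7% of all probe sets in that range.

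NEUROG2AQ arrays were set against the same control arrays as NEUROG2, so these comparisons share their controls. Here 0 of 156 member probe sets passed in limma, against 0.0663% of all tested probe sets (0.00796% higher and 0.0584% lower), and 0 passed under each alternative tried. At an unadjusted p under 0.05 there were 17 members, 10.9%, against 6.89% of all probe sets. The lowest adjusted p was 0.528, for the dimmer ELAVL4 probe set, which also had the largest difference (-0.53 ± 0.18). NEUROG2AQ arrays lay wholly above controls for 3 members (1.92%) and wholly below for 2 (1.28%), against 1.7% and 2.28% of all probe sets. The median member differed by -0.02. This does not show that NEUROG2AQ leaves these genes unchanged.

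The comparison of NEUROG2 with NEUROG2AQ sets the forms against each other, so a difference can hold a change with either of them. The amounts of the introduced proteins were not compared. Of the members 4 probe sets were higher with NEUROG2 and 7 lower, 7.05% against 6.06% of all probe sets. By direction, 3.67% of all probe sets were called higher and 2.39% lower. At an unadjusted p under 0.05 there were 48 members, 30.8%, against 16.3%, shares not matched for brightness. Without the 40% dimmest probe sets 11 of 123 members were called, against 10.1%, and with 1 probe set per gene 8 of 50, against 11.1%. NEUROG2 arrays lay wholly below NEUROG2AQ arrays for 23 members (14.7%) and wholly above for 12 (7.69%), against 5.99% and 6.39% of all probe sets. Among the brightest 10%, 1 of 50 members was called higher and 5 lower. That is 12% in all and 10% lower, against 13.4% and 7.61% of all probe sets of that range. There 18 members lay wholly below, 36% against 18.8% of all. Of the 11 calls, 8 were also called in NEUROG2 against control. Both comparisons use the NEUROG2 arrays, so the overlap is not independent. The 3 others were the dimmer ELAVL4 probe set, HNRNPH1 and SRSF7L. The largest difference was that of ELAVL4, whose probe sets were 1.65-fold and 1.76-fold higher. It includes lower ELAVL4 means in NEUROG2AQ than in control arrays, by -0.28 and -0.53, which did not pass. The count was 7 without control replicate 2, 6 without NEUROG2 replicate 3 or 4 or NEUROG2AQ replicate 1, and 7 without NEUROG2AQ replicate 2 or 3. In these fits 4.63% to 5.66% of all tested probe sets were called. With cyclic loess the split was 5 higher and 5 lower, and with median centring 2 higher and 7 lower. Over all tested probe sets, cyclic loess gave 1493 higher and 822 lower, and median centring 1265 higher and 1003 lower.

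Other genes of the splicing machinery were read from lists, each gene through its brightest probe set. Of 63 measured core spliceosome genes 5 fell with NEUROG2 and 0 rose, which is 7.94% against 10.6% of all 13008 genes read the same way. The list's median was -0.09, against 0.01 for all genes. Against NEUROG2AQ 0 were higher and 3 lower, 4.76% against 9.69%. TXNL4A, a component of the tri-snRNP, changed by -0.45 ± 0.10 (adjusted p = 0.011), a call that held under every alternative tried. SF3B1, the branch point protein of the U2 snRNP, differed by -0.33 ± 0.09 (adjusted p = 0.0341) and LSM8, of the U6 snRNP, by -0.42 ± 0.12 (adjusted p = 0.0469). Their calls ended without several arrays, at up to 0.112 and 0.153. Each also ended under 3 other settings, the compared groups alone and cyclic loess among them, at up to 0.0863 and 0.0984. SNRPF, an Sm ring protein, fell by 0.68 ± 0.16 (adjusted p = 0.0158) at signals close to the array median, and this call ended without NEUROG2 replicate 1 or 4 (0.0548 and 0.063). The list's count was 2 or 3 without control replicate 2, 3 or 4, NEUROG2 replicate 1, 2, 3 or 4 or NEUROG2AQ replicate 1 or 3. Those fits called 4.7% to 6.29% of all tested probe sets. None of 10 measured SR protein kinase genes passed, against 10.6% of all genes. An unadjusted p under 0.05 was reached by 3, and by 17.2% of all tested probe sets. Without control replicate 1, 2 of these kinase genes were called lower, and without control replicate 3 or NEUROG2 replicate 2, 1 was. In these fits 8.63%, 5.51% and 6.27% of all tested probe sets were called.

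Of 58 other splicing regulators, 1 rose and 2 fell with NEUROG2, 5.17% against 10.6% of all genes. RBM38 (RNPC1), which binds the mRNA of the kinase inhibitor p21 and regulates splicing in blood cells, rose more than any member. It read 8.01, 8.37, 8.44 and 8.33 in the control arrays, 9.88, 10.24, 10.17 and 9.99 in the NEUROG2 arrays and 8.44, 8.56, 8.57 and 8.38 in the NEUROG2AQ arrays. All NEUROG2 arrays lay above all others by a wide margin, and RBM38 rose 3.45-fold over control (1.79 ± 0.12, adjusted p = 1.2e-07) and 3-fold over NEUROG2AQ (1.58 ± 0.12, adjusted p = 3.32e-07). SCAF8 (-0.68 ± 0.13, adjusted p = 0.0028), a protein that binds the RNA polymerase tail, and LUC7L2 (-0.43 ± 0.09, adjusted p = 0.007), a U1 snRNP factor, fell. The calls of RBM38, SCAF8 and LUC7L2 against control held under every alternative tried. Against NEUROG2AQ, 3 genes of the list were higher and 1 lower, 6.9% against 9.69% of all genes. Among them, RBM24 (0.71 ± 0.15, adjusted p = 0.00722), a splicing regulator of muscle, and RBM10 (0.46 ± 0.10, adjusted p = 0.00841) were higher. The list's count against control was 5 without control replicate 1, a fit that called 8.63% of all tested probe sets.

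Of 46 measured genes in a list of other RNA-binding proteins, drawn up for neurons and progenitors, 4 rose and 5 fell with NEUROG2. That is 19.6% against 10.6% of all genes. The list was chosen with earlier results of these data known, so this share is not independent evidence. CPEB1, which controls poly(A) tail length and local translation, read 3.34, 3.27, 3.08 and 3.13 in the control arrays, 4.88, 5.04, 4.95 and 5.05 in the NEUROG2 arrays and 2.87, 3.66, 3.27 and 3.41 in the NEUROG2AQ arrays. It rose 3.43-fold over control (1.78 ± 0.14, adjusted p = 8.57e-07) and 3.21-fold over NEUROG2AQ (1.68 ± 0.14, adjusted p = 1.16e-06), from control signals near background. ZFP36L2 and ZFP36L1, which promote decay of AU-rich mRNAs, fell. ZFP36L2 read 9.03, 8.71, 8.74 and 8.64 in the control arrays, 7.26, 7.47, 7.06 and 6.95 in the NEUROG2 arrays and 8.59, 8.37, 8.53 and 7.95 in the NEUROG2AQ arrays. It fell 3.02-fold against control (-1.59 ± 0.15, adjusted p = 7.05e-06) and 2.25-fold against NEUROG2AQ (-1.17 ± 0.15, adjusted p = 0.000123). ZFP36L1 changed by -0.78 ± 0.12 against control (adjusted p = 0.000599). In NEUROG2AQ arrays ZFP36L1 also lay wholly below control, at -0.66 ± 0.12, without passing (adjusted p = 0.0639), and NEUROG2 and NEUROG2AQ differed by -0.12 ± 0.12 (adjusted p = 0.73). LIN28A, a progenitor protein that blocks let-7 maturation, changed by -0.86 ± 0.23 (adjusted p = 0.0319), which was lost when control replicate 1 or 4 or NEUROG2 replicate 2 or 3 was left out, at 0.0595 to 0.0884. Against NEUROG2AQ 3 genes were higher and 3 lower, 13% against 9.69% of all genes, SAMD4A by 0.82 ± 0.10 (adjusted p = 8.29e-05) and RC3H1 by 0.73 ± 0.10 (adjusted p = 0.000239) among the former. In NEUROG2AQ against control, 0 genes of these 4 lists passed, against 0.108% of all genes. At an unadjusted p under 0.05 there were 1, 1, 3 and 5 of 63, 10, 58 and 46, against 6.89% of all tested probe sets.

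**Figure D4:**
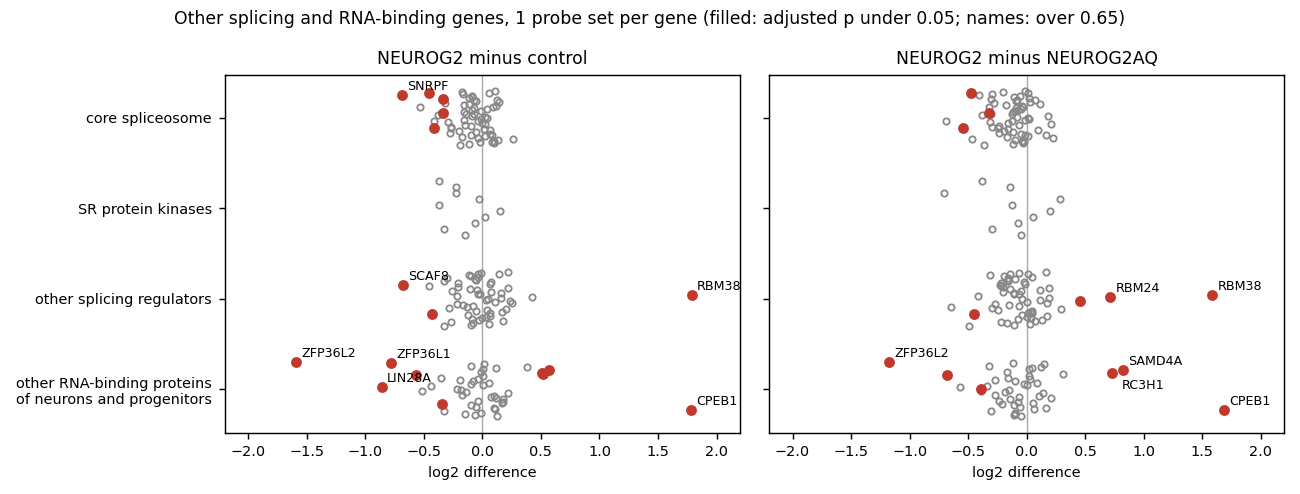
Log2 difference (horizontal axis, log2 units) of genes of 4 lists of splicing and RNA-binding proteins outside the member families, 1 probe set per gene, for NEUROG2 minus control (left) and NEUROG2 minus NEUROG2AQ (right). Filled points passed limma's test. RBM38 and CPEB1 stand far to the right of all others, at 1.79 and 1.78 against control, and ZFP36L2 far to the left at -1.59.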

How the data were processed

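The deposited table holds log2 signals of 38535 probe sets on 12 arrays, each made from 50 ng of total RNA. The tools were GCOS, RMA and affy, versions not given, per the submitters' processing notes. RMA corrects background, normalises between arrays and gives 1 value per probe set. The deposited values are called log signals in the labels, and base 2 was inferred from their range of 0.49 to 13.97. They were used as deposited. The 37693 probe sets with chicken transcript identifiers were tested, and 842 controls and others were left out. Of the tested, 27166 had 1 symbol, 177 several and 10350 none in the platform's annotation. Against RefSeq's current gene names (GRCg7b, used for names alone) all 156 members kept their symbol.

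One limma model (version 3.58.1, R 4.3.3; lmFit, then eBayes) covered the 12 arrays. Its sole term was group, which left 9 residual degrees of freedom. Tests were two-sided, and p-values were adjusted by Benjamini-Hochberg across the 37693 probe sets, with a threshold of 0.05. The procedure was tested on simulated data. The number of arrays limits the precision. Named are all members past the threshold and all members of the families other than SRSF and HNRNP, and at most 4 called genes per other list, those with the largest change. Members and lists were chosen with earlier results of these data known. Alternatives changed the probe sets tested, moderation, arrays, scaling, array weights, replicate block and RNA integrity covariate. For the lists outside the member families they were chosen after seeing the data. No probe or transcript sequence was used here.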

Additional observations from a re-analysis of the deposited data

Results flagged for a closer look

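In each group of 4 arrays, the array farthest from the others was set against the group's range for 94 named probe sets, 282 groups in all. In 18 groups the gap took up more of the range than Dixon's test allows at 95%, and chance flags about 1 in 20 groups, so that this number is near what chance gives. None of these arrays was left out for this reason.

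Some of these values belong to members with a call. KHDRBS3 read 8.17 in NEUROG2 replicate 4 against 7.88 to 7.92 in the other NEUROG2 arrays. MSI2 on its brightest probe set read 7.25 in NEUROG2 replicate 2 against 6.88 to 6.90. In NEUROG2AQ replicate 4, SRSF2 read 11.0 against 11.12 to 11.14 and SRSF7 read 9.97 against 9.64 to 9.69. SRSF5 read 8.20 in NEUROG2AQ replicate 3 against 8.28 to 8.30.

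The others belong to probe sets without a call. In control arrays, MBNL3 read 4.54, MSI2 on a dimmer probe set 4.79 and NOVA1 7.05 in replicate 1, PTBP3 1.17 in replicate 2 and PTBP2 1.45 in replicate 3. In NEUROG2 arrays, ELAVL1 read 8.0 in replicate 1, ELAVL2 2.25 and MSI1 also 2.25 in replicate 3, and NOVA1 0.88 in replicate 4. In NEUROG2AQ arrays, ELAVL2 read 1.62 and PTBP2 1.19 in replicate 1, CELF2 4.94 in replicate 3 and MBNL3 3.47 in replicate 4.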

How the results depend on the processing

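Of the 14 member calls of NEUROG2 against control, 8 remained in number with only the compared groups fitted (1 higher, 7 lower), against 12 with median centring, 10 with cyclic loess and 11 with a replicate block. With both control replicate 1 and NEUROG2AQ replicate 4 left out there were 23, and leaving out 1 array in turn gave 6 to 19. The share of all probe sets called was 9.77% without both and 4.7% to 8.63% with 1 left out. Of the 11 calls of NEUROG2 against NEUROG2AQ, a replicate block gave 7, and 1 array left out gave 6 to 14, with 4.63% to 7.8% of all probe sets called. The labels do not say whether equal replicate numbers pair the arrays, and the values do not settle it. Of 12 same-numbered pairs 5 had deviations correlated above 0.1 (r from -0.3 to 0.23), and 5 of 12 arrays correlated best with their own number. The strongest correlations were between arrays of different numbers. NEUROG2AQ replicate 4 had an r of 0.42 with control replicate 1 and of -0.41 with control replicate 3. Between control and NEUROG2 the same-numbered r was 0.18, 0.23, -0.02 and 0.13 for numbers 1 to 4. NEUROG2AQ against control gave 0 throughout. The platform's and the current symbols chose the same members.

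For the other lists, core spliceosome calls against control went from 5 to 2 with only the compared groups or cyclic loess and to 2 to 6 with 1 array left out, and against NEUROG2AQ from 3 to 2 to 5. SR protein kinase calls went from 0 to 1 against NEUROG2AQ with the compared groups or cyclic loess, and to 2 in both comparisons without both named arrays, with 0 to 2 and 0 to 1 when 1 array was left out. Other splicing regulators went from 3 to 5 against control with trend and robust and to 8 without both arrays (3 to 5 with 1 left out), and from 4 to 7 against NEUROG2AQ without both. Other RNA-binding proteins gave 1 call in NEUROG2AQ against control with trend and robust or a replicate block. The blood and endothelium call, FLT1, was not tested without the 40% dimmest probe sets, where the count was 0, and 1 array left out gave 0 to 2. The share of all tested probe sets called also moved. Against control it was 6.67% in the main fit, 5.56% with the compared groups, 6.42% with cyclic loess and 6.65% with trend and robust. Without both arrays it was 9.77%. Against NEUROG2AQ it was 6.06%, then 7.15% with the compared groups, 6.14% with cyclic loess and 7.84% without both. In NEUROG2AQ against control it was 0.0663%, then 0.117% with trend and robust and 0.0743% with a replicate block. The cause of these shifts was not tested.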
